A study of Homo sapiens with 38 samples.

Results

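The 9 genes described here belong to the transforming growth factor beta (TGF-beta) pathway and were taken as a fixed list of names: the ligands TGFB1 and TGFB2, the receptors TGFBR1 and TGFBR2, the signal transducers SMAD2, SMAD3 and SMAD4, the inhibitor SMAD7, and THBS1. They are 9 of the 58425 genes to which the transcripts in the files could be assigned. All 9 passed the filter on low counts in every main fit. RNA was sequenced from purified nuclei and from cytoplasm of HCT116 cells, a colorectal carcinoma line grown in McCoy's 5A medium with serum. Wild-type cells were compared with lines in which AGO1, AGO2, AGO1 and AGO2 (AGO1/2), or AGO1, AGO2 and AGO3 (AGO1/2/3) had been disrupted with CRISPR/Cas9 by a commercial supplier, and no line received any further treatment. Every genotype gave 3 libraries per fraction, 30 in all, numbered by culture passage. Each genotype was 1 line, and wild-type cells were at passages 27 to 29 while the knockout lines were at passages 6 to 14, so that genotype, clone and passage cannot be told apart. The study calls the passages biological replicates, and as each genotype was 1 line, p-values measure the spread between libraries of a line. The question was how loss of one or several argonaute proteins changed the RNA of these genes in each compartment.

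TGF-beta ligands are secreted in a latent form and must be released before they bind. THBS1 (thrombospondin 1) is a matrix protein that can activate latent TGF-beta and is itself induced by the pathway. The ligand binds the receptor kinase TGFBR2, which recruits and phosphorylates TGFBR1, and TGFBR1 in turn phosphorylates SMAD2 and SMAD3. These join SMAD4 and enter the nucleus to regulate genes, among them SMAD7, which blocks the receptor and closes a negative feedback loop. In the colon the pathway restrains growth of the epithelium, and mismatch-repair-deficient lines such as HCT116 are known for frameshifts that truncate TGFBR2. AGO proteins carry microRNAs (miRNAs), short RNAs that pair through their seed with mRNAs and lower mRNA stability and translation.

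Mature miRNAs from 8 seed families well known in colorectal and TGF-beta biology were matched to the 3′ untranslated regions (3′UTRs) of the members. The 5 shown here are those whose matches in members are printed next, with the seed (bases 2 to 8) in capitals. The sequences are those of RefSeq (GRCh38.p14).
hsa-let-7a-5p: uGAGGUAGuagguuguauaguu
hsa-miR-17-5p: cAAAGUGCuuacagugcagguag
hsa-miR-19b-3p: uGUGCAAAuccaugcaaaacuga
hsa-miR-21-5p: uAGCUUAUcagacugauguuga
hsa-miR-145-5p: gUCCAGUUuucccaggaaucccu

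The seed matches searched were CTACCTC (let-7), GCACTTT (miR-17), GCACCTT (miR-18a), TTTGCAC (miR-19b), ATAAGCT (miR-21), CAGTATT (miR-200b and miR-200c, which share a seed), AACTGGA (miR-145) and AATGTGA (miR-23a), on the transcript strand of the longest coding transcript of each gene (GENCODE 44). The match to let-7 was present in 2 of the 9 members and in 11.7% of 13685 tested coding genes, that to miR-21 in 5 members and in 10.2% of genes, that to miR-145 in 6 members and in 15.3% of genes, that to miR-17 in 5 members and in 25.5% of genes, and that to miR-19b in 5 members and in 15.8% of genes. Long 3′UTRs hold more matches, and the 3′UTR of SMAD2, annotated at 32870 nucleotides, held 7 of the 8. The match to miR-18a was present in 4 members and in 10.7% of genes, that to miR-200b and miR-200c in 5 members and in 19.2% of genes, and that to miR-23a in 3 members and in 20.8% of genes. Some of the matches in a ligand, both receptors and the inhibitory SMAD are printed below as examples. Those of the other members, among them 2 seeds in TGFB1 and 7 in SMAD2, are not printed. Capitals mark the match, within 21 bases of the transcript.
TGFB2, miR-21: attatgacATAAGCTacctgg
TGFB2, miR-145: agtttgaaAACTGGAaaagca
TGFBR1, let-7: caattgttCTACCTCactgag
TGFBR1, miR-145: tacaagagAACTGGAaaaatg
TGFBR2, miR-17: taacatttGCACTTTattaat
TGFBR2, miR-19b: caataacaTTTGCACtttatt
SMAD7, miR-21: actttaacATAAGCTattttt

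The capitals lie at chr1:218442644-218442650 and chr1:218443460-218443466 for TGFB2, chr9:99149380-99149386 and chr9:99153978-99153984 for TGFBR1, chr3:30691867-30691873 and chr3:30691864-30691870 for TGFBR2, all on the plus strand, and at chr18:48920244-48920250 on the minus strand for SMAD7 (GRCh38). The matches to miR-17 and miR-19b in TGFBR2 overlap. Among genes with a 3′UTR of similar length, 16.7% held the miR-21 match for TGFB2, 25% the miR-145 match for TGFB2, 25.7% and 33.1% the let-7 and miR-145 matches for TGFBR1, 36.9% and 21.7% the miR-17 and miR-19b matches for TGFBR2, and 7.7% the miR-21 match for SMAD7. A match is a description of the sequence. The levels of these miRNAs were not measured in the libraries analysed here.

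Estimated read totals per library ranged from 20431557 to 54097984 in nuclear RNA and from 39476205 to 79731793 in cytoplasmic RNA, with the lowest totals in wild-type cells in both fractions. AGO1 RNA was lower in all 3 lines that lack AGO1, with log2 fold changes of −1.25, −1.90 and −1.70 in nuclear RNA and −3.49, −3.19 and −3.29 in cytoplasmic RNA for the AGO1, AGO1/2- and AGO1/2/3-deficient cells. AGO2 RNA was lower in AGO2 knockout cells by −0.47 and −0.67 but not in cytoplasmic AGO1/2 knockout RNA (0.31), and AGO3 RNA in AGO1/2/3 knockout cells was at −0.30 and 0.34. The RNA therefore checks the AGO1 label only, since a small edit need not remove a transcript. All 6 colon epithelial markers were detected in every group. Their summed nuclear level was 1184 to 1314 TPM (abundance per transcript length, scaled to a fixed total per library) in wild-type libraries. It was 2617 to 2786 TPM in AGO1/2 knockout and 2032 to 2380 TPM in AGO1/2/3 knockout libraries. The cytoplasmic sum was 1221 to 1415 TPM in wild-type libraries. It was lower in AGO1/2 knockout libraries (813 to 992 TPM), and 1082 to 1337 TPM in AGO1/2/3 knockout libraries. The keratins KRT8 (1.34 and 1.22 on the log2 scale), KRT18 (1.19 and 1.0) and KRT19 (1.38 and 1.37) were higher in nuclear RNA of AGO1/2- and AGO1/2/3-deficient cells, whereas EPCAM (−0.56 and −0.38), CLDN7 (−1.47 and −0.94) and CDH1 (E-cadherin, −2.18 and −1.49) were lower. Of 6 fibroblast markers 4 or 5 were under 0.1 TPM in all libraries of a group, 3 endothelial markers summed to at most 0.182 TPM, and the leukocyte gene PTPRC was under 0.1 TPM in every group, whereas CD68 was higher in nuclear AGO1/2- and AGO1/2/3-deficient RNA (2.72 and 2.57). The nuclear fractions differed between lines. The nuclear RNAs NEAT1 and MALAT1 summed to 2789 to 3665 TPM in wild-type nuclei. They summed to 1711 to 2164 TPM in AGO1 and 1825 to 1923 TPM in AGO2 knockout nuclei. In AGO1/2 and AGO1/2/3 knockout nuclei the sums were 1282 to 1495 and 1259 to 1559 TPM. The cytoplasmic mRNA GAPDH was higher in nuclear RNA of all 4 knockout lines (0.60, 0.60, 1.11 and 0.91 on the log2 scale, in that order). The part of these differences in the values below was not tested.

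Per transcript length, on the TPM scale, SMAD2 and SMAD4 had the highest levels of the 9 genes in wild-type nuclei (36.6 and 36.3 TPM), followed by SMAD3 (25.7 TPM), TGFBR2 (15.9 TPM), TGFB1 (9.74 TPM), TGFBR1 (8.05 TPM), THBS1 (4.20 TPM), SMAD7 (2.11 TPM) and TGFB2 (0.363 TPM). In wild-type cytoplasm SMAD2 was highest (45.9 TPM) and TGFB2 lowest (0.170 TPM), and TGFBR2 (6.26 TPM) stood below TGFB1 (14.7 TPM) and TGFBR1 (11.4 TPM). All values for single libraries that follow are CPM (read counts scaled to a common library total with TMM factors), which compare 1 gene between libraries of a fraction and not different genes. In bulk RNA, a change in the share of cells that express a gene and a change in the RNA per cell cannot be told apart.

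**Figure D1:**
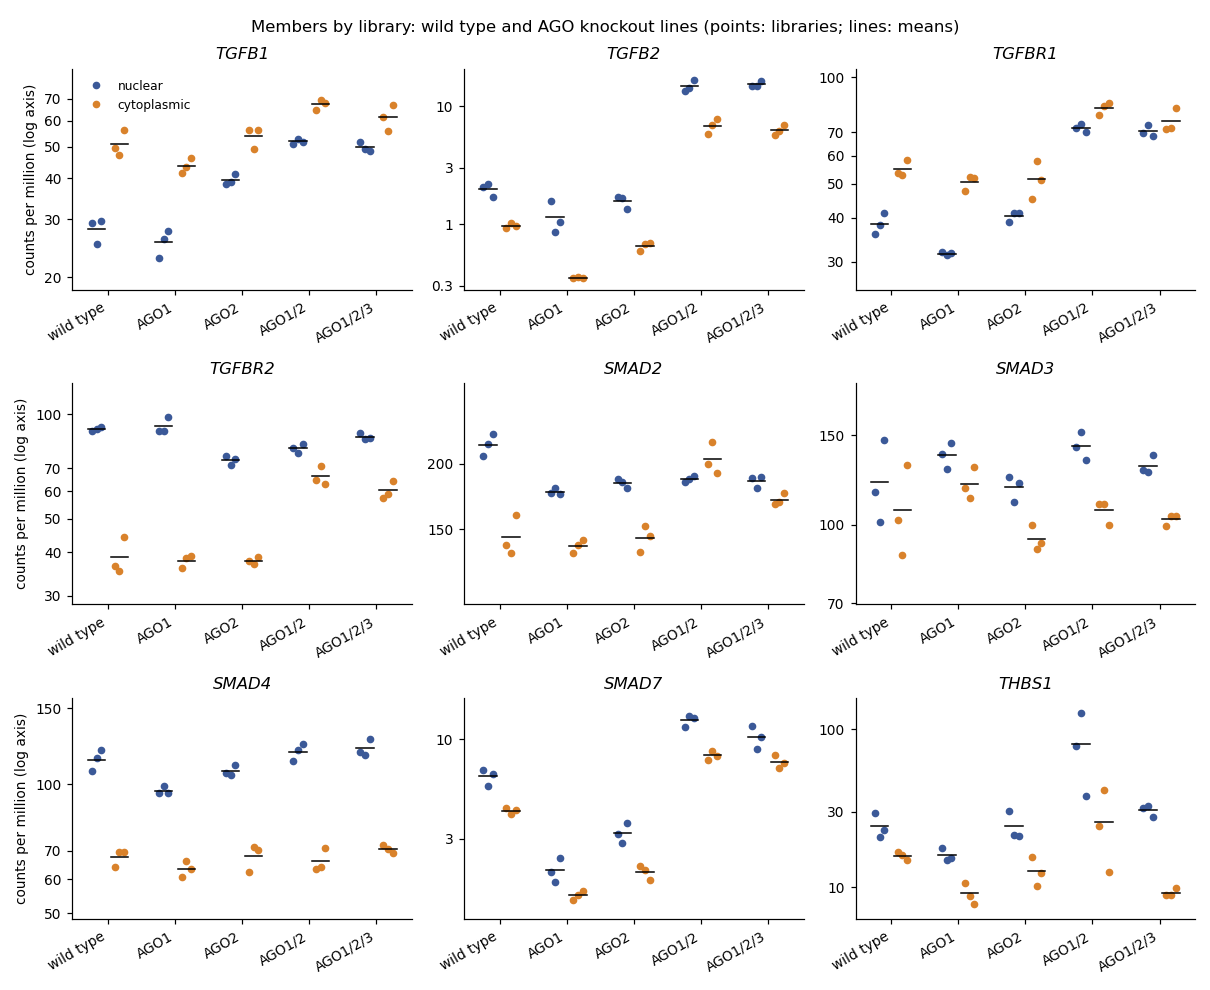
Level of each of the 9 genes in every library, in CPM on a log axis, by genotype on the horizontal axis. Points are libraries (nuclear in blue, cytoplasmic in orange) and short lines are means of 3. TGFB2 and SMAD7 show the widest separation between genotypes, and the 3 nuclear AGO1/2 knockout libraries of THBS1 spread from 38.0 to 127 CPM.

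Loss of AGO1 together with AGO2 went with higher RNA of the ligands, both receptors in cytoplasm, and SMAD7, whereas the calls in the single knockouts were mostly lower. Calls were made with edgeR's quasi-likelihood test at a Benjamini-Hochberg adjusted p of at most 0.05 over all genes of a fraction. In nuclear RNA, AGO1 knockout cells had 0 members higher and 5 lower (all genes: 14.3% higher, 15.6% lower), and AGO2 knockout cells 1 higher and 3 lower (all genes: 20.2% and 19.9%). AGO1/2 knockout cells had 5 members higher and 2 lower, against 32.9% and 34.7% of all genes, with a median log2 fold change of 0.88 for the members and −0.06 for all genes. AGO1/2/3 knockout cells had 4 higher and 1 lower, against 29.1% and 29.5% of all genes, with medians of 0.32 and −0.03.

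In cytoplasmic RNA, AGO1 knockout cells had 0 members higher and 2 lower (all genes: 4.28% and 8.13%), and AGO2 knockout cells likewise 0 and 2 (all genes: 7.07% and 9.0%). AGO1/2 knockout cells had 6 higher and 0 lower, against 23.9% and 25.4% of all genes, and AGO1/2/3 knockout cells 6 and 0, against 18.6% and 20%. On the TPM scale (limma on log2(TPM + 1)) these cytoplasmic splits were 3 higher and 2 lower, and 2 higher and 2 lower. Cytoplasmic TGFB2, with a mean under 1 TPM, was left out on that scale and is in neither split. The median of all genes on that scale moved to −0.35 and −0.23. All 4 lines were compared with the same wild-type libraries, so their counts are not independent of each other. The list of members was chosen with earlier results of these data known, which limits the comparison of these counts with all genes.

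**Figure D2:**
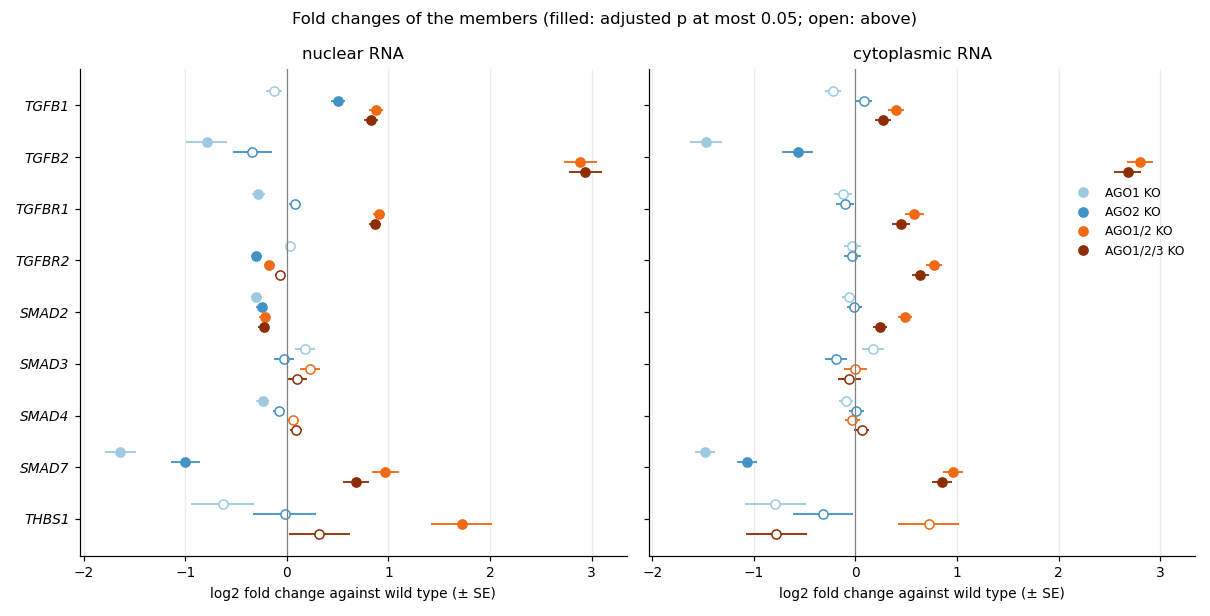
Log2 fold change against wild type (horizontal axis) for each gene in the 4 knockout lines, nuclear and cytoplasmic RNA in separate panels. Points are edgeR estimates with their standard errors and filled points passed an adjusted p of 0.05. TGFB2 lies near 2.9 in nuclear RNA of the AGO1/2- and AGO1/2/3-deficient cells and SMAD7 lies on opposite sides of 0 in the single knockouts and in these lines.

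TGFB2, a ligand (ENSG00000092969.12, chr1:218345336-218444619, plus strand), showed the largest fold changes of the 9 genes in AGO1/2- and AGO1/2/3-deficient cells. In nuclear RNA it measured 2.08, 2.17 and 1.71 CPM in wild-type, 1.56, 0.859 and 1.04 in AGO1 knockout, 1.69, 1.68 and 1.35 in AGO2 knockout, 13.5, 14.1 and 16.6 in AGO1/2 knockout and 14.8, 14.7 and 16.4 CPM in AGO1/2/3 knockout libraries. The last 6 libraries stood above all 9 others, and the AGO1/2- and AGO1/2/3-deficient ranges overlapped each other. The level was 7.39-fold higher in AGO1/2 knockout cells (log2 fold change 2.89 ± 0.16, SE; adjusted p = 8.8e-10, edgeR) and 7.66-fold higher in AGO1/2/3 knockout cells (adjusted p = 1.3e-09). In AGO1 knockout cells it fell by 0.79 ± 0.20 on the log2 scale (adjusted p = 0.0079), and the difference in AGO2 knockout cells was −0.34 (adjusted p = 0.17). The AGO1 call was lost in 3 of 8 alternative analyses, with −0.20 on log2(TPM + 1) (adjusted p = 0.18, limma), where the median of all genes was −0.19.

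Cytoplasmic TGFB2 measured 0.925, 1.03 and 0.964 CPM in wild-type, 0.351, 0.356 and 0.349 in AGO1 knockout, 0.597, 0.676 and 0.695 in AGO2 knockout, 5.77, 6.85 and 7.80 in AGO1/2 knockout and 5.74, 6.13 and 6.86 CPM in AGO1/2/3 knockout libraries. The AGO1 knockout libraries were the lowest, the AGO2 knockout libraries lay between them and wild type, and the AGO1/2 and AGO1/2/3 libraries again stood apart above. The level was 2.76-fold lower in AGO1 knockout cells (adjusted p = 3.6e-05, edgeR), 6.97-fold higher in AGO1/2 knockout cells (adjusted p = 1.1e-09) and 6.40-fold higher in AGO1/2/3 knockout cells (adjusted p = 2.4e-09). The decrease in AGO2 knockout cells (−0.57 ± 0.15, adjusted p = 0.018) missed the threshold without AGO2 knockout passage 8 (adjusted p = 0.076) or wild-type passage 28 (adjusted p = 0.062).

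The TGFB2 reads were divided between the full-length coding transcript TGFB2-202 and a shorter one without a defined coding sequence, TGFB2-203. TGFB2-203 carried 36.8 ± 3.19% (SD, n = 3) of the gene's summed TPM in AGO1/2 knockout nuclei and 40.3 ± 9.90% in AGO1/2/3 knockout nuclei, compared with 11.3 ± 19.6% in wild-type nuclei. TGFB2-202 alone was at 0.287 TPM in wild-type nuclei and at 1.87 and 1.52 TPM in those of the AGO1/2- and AGO1/2/3-deficient cells.

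TGFB1, the other ligand (ENSG00000105329.11, chr19:41301587-41353922, minus strand), was higher in nuclear RNA of 3 lines. It measured 29.2, 25.3 and 29.7 CPM in wild-type, 22.9, 26.2 and 27.7 in AGO1 knockout, 38.4, 39.0 and 41.3 in AGO2 knockout, 51.0, 52.8 and 51.7 in AGO1/2 knockout and 51.6, 49.3 and 48.6 CPM in AGO1/2/3 knockout nuclei. Wild-type and AGO1 knockout libraries overlapped, AGO2 knockout libraries lay above both, and the AGO1/2 and AGO1/2/3 libraries overlapped at the top. The log2 fold changes were 0.50 ± 0.07 in AGO2 (adjusted p = 1.3e-04), 0.88 ± 0.07 in AGO1/2 (adjusted p = 7.1e-08) and 0.83 ± 0.07 in the AGO1/2/3 line (adjusted p = 2.3e-07, all edgeR). The locus overlaps HNRNPUL1 and CCDC97 on the opposite strand, with medians of 69.5 and 6.03 TPM over the 30 libraries. The study lists HNRNPUL1 as up-regulated in AGO1/2/3 knockout cells. The libraries were stranded, and whether reads of these genes entered the TGFB1 values was not tested.

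Cytoplasmic TGFB1 measured 49.4, 47.2 and 56.0 CPM in wild-type, 41.6, 43.2 and 46.1 in AGO1 knockout, 56.2, 49.2 and 56.2 in AGO2 knockout, 64.8, 69.1 and 68.0 in AGO1/2 knockout and 61.4, 55.6 and 66.9 CPM in AGO1/2/3 knockout libraries. The AGO1/2 knockout libraries stood above wild type, and the AGO1/2/3 knockout libraries overlapped it. The increase was 0.40 ± 0.08 in AGO1/2 knockout cells (adjusted p = 0.0011, edgeR). In AGO1/2/3 knockout cells the change of 0.27 ± 0.08 (adjusted p = 0.021) missed the threshold without AGO1/2/3 knockout passage 14 (0.10), wild-type passage 27 (0.066) or wild-type passage 28 (0.092, each an adjusted p). The cytoplasmic direction depended on the scale: mean TPM was 14.7 in wild-type, 14.3 in AGO1/2 knockout and 14.8 in AGO1/2/3 knockout cells, and the difference on log2(TPM + 1) was −0.04 in AGO1/2 knockout cells where the median of all genes was −0.35.

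TGFBR1, the receptor kinase that phosphorylates SMAD2 and SMAD3 (ENSG00000106799.14, chr9:99104038-99154192, plus strand), was higher in both fractions of AGO1/2- and AGO1/2/3-deficient cells. Its 3′UTR holds the let-7 and miR-145 matches printed above. In nuclear RNA it measured 35.9, 38.1 and 41.2 CPM in wild-type, 32.0, 31.3 and 31.7 in AGO1 knockout, 39.0, 41.4 and 41.3 in AGO2 knockout, 72.0, 73.6 and 70.2 in AGO1/2 knockout and 69.5, 73.5 and 68.1 CPM in AGO1/2/3 knockout libraries. The AGO1 knockout libraries were the lowest, AGO2 knockout and wild-type libraries overlapped, and the AGO1/2 and AGO1/2/3 libraries overlapped well above them. The level was 1.87-fold higher in AGO1/2 (adjusted p = 4.1e-09) and 1.83-fold higher in AGO1/2/3 knockout cells (adjusted p = 9.9e-09), and fell by 0.28 ± 0.06 on the log2 scale in AGO1 knockout cells (adjusted p = 0.0027, all edgeR).

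Cytoplasmic TGFBR1 measured 53.6, 53.0 and 58.5 CPM in wild-type, 47.8, 52.1 and 51.9 in AGO1 knockout, 45.3, 58.1 and 51.2 in AGO2 knockout, 78.1, 83.2 and 84.7 in AGO1/2 knockout and 71.5, 71.9 and 82.1 CPM in AGO1/2/3 knockout libraries. The last 6 libraries lay above the other 9, and the single knockouts did not pass the test (adjusted p = 0.40 and 0.52). The increases were 1.49-fold (adjusted p = 8.3e-05) and 1.37-fold (adjusted p = 9.6e-04, both edgeR). On log2(TPM + 1) they were 0.15 (adjusted p = 0.13) and 0.18 (adjusted p = 0.082, limma) and missed the threshold, where the medians of all genes were −0.35 and −0.23.

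TGFBR2, the receptor that binds the ligand (ENSG00000163513.19, chr3:30606601-30694142, plus strand), changed in a different manner in the 2 fractions. In nuclear RNA it measured 89.3, 90.8 and 91.9 CPM in wild-type, 89.4, 89.7 and 98.4 in AGO1 knockout, 75.6, 71.3 and 74.4 in AGO2 knockout, 79.8, 77.6 and 82.1 in AGO1/2 knockout and 88.5, 85.0 and 85.3 CPM in AGO1/2/3 knockout libraries. Here AGO2 and AGO1/2 knockout libraries lay below wild type, by −0.30 ± 0.05 (adjusted p = 4.4e-04) and −0.18 ± 0.05 (adjusted p = 0.0060, edgeR). Its 3′UTR holds the overlapping matches to miR-17 and miR-19b printed above. In AGO1/2/3 knockout nuclei the difference was −0.07 (adjusted p = 0.25), although all 3 libraries were below the wild-type ones. The AGO1/2 call was lost in 3 of 8 alternative analyses, the value nearest to 0 being −0.08 with counts scaled by transcript length (adjusted p = 0.23, edgeR), and the AGO1/2/3 difference was called in 3 of 8, with −0.27 on log2(TPM + 1) (adjusted p = 0.0051, limma).

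Cytoplasmic TGFBR2 measured 36.5, 35.4 and 44.3 CPM in wild-type, 36.0, 38.5 and 39.1 in AGO1 knockout, 37.8, 37.1 and 38.7 in AGO2 knockout, 64.5, 71.1 and 63.1 in AGO1/2 knockout and 57.5, 59.0 and 64.4 CPM in AGO1/2/3 knockout libraries. The single knockouts overlapped wild type, and the AGO1/2 and AGO1/2/3 libraries were above all others. The level was 1.71-fold higher in AGO1/2 (adjusted p = 3.2e-06) and 1.56-fold higher in AGO1/2/3 knockout cells (adjusted p = 3.1e-05, edgeR).

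SMAD2, which carries the receptor signal into the nucleus (ENSG00000175387.16, chr18:47808957-47931146, minus strand), was lower in nuclear RNA of all 4 lines and higher in cytoplasmic RNA of the AGO1/2- and AGO1/2/3-deficient cells, on the CPM scale. Nuclear values were 207, 218 and 228 CPM in wild-type, 176, 180 and 175 in AGO1 knockout, 187, 185 and 180 in AGO2 knockout, 185, 187 and 190 in AGO1/2 knockout and 188, 180 and 189 CPM in AGO1/2/3 knockout libraries. Every knockout library lay below every wild-type library. The differences were −0.30, −0.25, −0.22 and −0.23 (SE 0.05 each, adjusted p = 4.9e-04, 0.0012, 0.0013 and 0.0011, edgeR).

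The nuclear decrease of SMAD2 in AGO1/2- and AGO1/2/3-deficient cells turned into an increase with counts scaled by transcript length, where it was 0.33 (adjusted p = 0.00025) and 0.22 (adjusted p = 0.0064, edgeR). Under the same scaling the single knockouts missed the threshold, at −0.07 in AGO1 (adjusted p = 0.41) and 0.00 in AGO2 knockout nuclei (adjusted p = 1.0). Mean nuclear TPM was 36.6 in wild-type, 28.9 in AGO1 knockout, 29.7 in AGO2 knockout, 42.3 in AGO1/2 knockout and 34.7 in AGO1/2/3 knockout cells. On that scale the mean of AGO1/2 knockout nuclei was above wild type and that of AGO1/2/3 knockout nuclei was not. The short transcript SMAD2-205 carried 13.2 ± 1.46% (SD, n = 3) of SMAD2 TPM in wild-type nuclei, 17.5 ± 1.32% in AGO1 knockout, 16.7% to 22.7% in AGO2 knockout, 26.3 ± 0.568% in AGO1/2 knockout and 24.1 ± 1.61% in AGO1/2/3 knockout nuclei. In cytoplasm its share was 32.3% to 35.5% over the 5 genotypes, so that the nuclear shares of the AGO1/2- and AGO1/2/3-deficient cells were nearer to the cytoplasmic ones. These shares depend on how reads were divided among transcripts and were not tested.

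**Figure D3:**
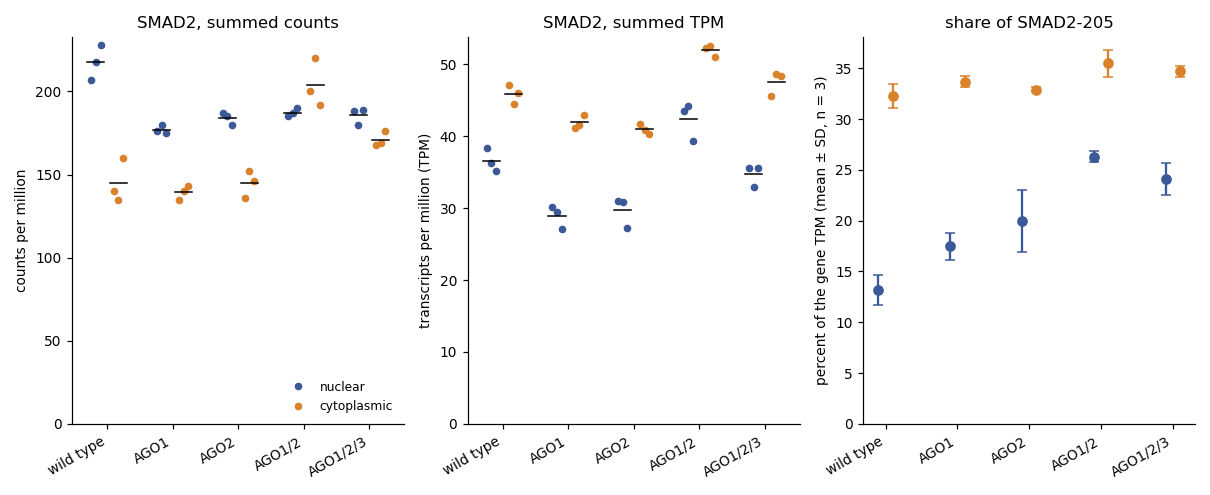
SMAD2 in every library by genotype, as CPM, as TPM and as the percentage of SMAD2 TPM carried by SMAD2-205. Nuclear values are blue and cytoplasmic ones orange. Points in the first 2 panels are libraries with their means as lines, and in the last panel means with SD of 3 libraries. Nuclear CPM is highest in wild-type cells, whereas mean nuclear TPM is highest in AGO1/2 knockout cells (42.3 TPM).

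Cytoplasmic SMAD2 measured 140, 135 and 160 CPM in wild-type, 135, 140 and 143 in AGO1 knockout, 136, 152 and 146 in AGO2 knockout, 200, 220 and 192 in AGO1/2 knockout and 168, 169 and 176 CPM in AGO1/2/3 knockout libraries. The single knockouts overlapped wild type, and the other lines lay above it. The increase was 1.40-fold in AGO1/2 knockout cells (adjusted p = 6.8e-05, edgeR). That of 1.18-fold in AGO1/2/3 knockout cells (adjusted p = 0.018) missed the threshold without AGO1/2/3 knockout passage 14 (0.062), wild-type passage 27 (0.066) or wild-type passage 28 (0.088, each an adjusted p).

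SMAD3, the second receptor-activated SMAD (ENSG00000166949.17, chr15:67063763-67195173, plus strand), passed the edgeR test in no knockout line. Nuclear values were 116, 101 and 147 CPM in wild-type, 138, 129 and 145 in AGO1 knockout, 124, 111 and 121 in AGO2 knockout, 142, 152 and 134 in AGO1/2 knockout and 128, 127 and 137 CPM in AGO1/2/3 knockout libraries. The wild-type libraries spread over the range of all lines, with passage 29 the highest of them. The difference in AGO1/2 knockout nuclei was 0.23 ± 0.10 (adjusted p = 0.057, edgeR), and without wild-type passage 29 it was 0.42 (adjusted p = 0.00017), with 0.35 in AGO1 and 0.29 in AGO1/2/3 knockout nuclei then also called. Without AGO1/2 knockout passage 11 it was 0.29 (adjusted p = 0.042). In cytoplasm SMAD3 lay between 87.1 and 131 CPM in wild-type and between 99.2 and 110 CPM in the AGO1/2- and AGO1/2/3-deficient libraries, and without wild-type passage 29 the difference of AGO1 knockout cells was 0.34 (adjusted p = 0.019). On log2(TPM + 1) SMAD3 was called lower in AGO2 knockout nuclei (−0.36, adjusted p = 0.039, limma) and in cytoplasm of AGO2 (−0.40, adjusted p = 0.0071), AGO1/2 (−0.40, adjusted p = 0.0025) and AGO1/2/3 knockout cells (−0.35, adjusted p = 0.0088), where the medians of all genes were −0.19, −0.19, −0.35 and −0.23. Under DESeq2, RLE size factors or no low-count filter the nuclear AGO1/2 knockout difference was called higher (0.26 to 0.31).

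SMAD4, the partner common to the receptor-activated SMADs (ENSG00000141646.16, chr18:51028528-51085045, plus strand), was called in AGO1 knockout nuclei alone in edgeR. Nuclear values were 107, 115 and 120 CPM in wild-type and 95.3, 98.7 and 95.5 CPM in AGO1 knockout libraries, the lowest of the 5 genotypes, with a difference of −0.24 ± 0.06 (adjusted p = 0.0064, edgeR). In the other lines nuclear SMAD4 lay between 105 and 127 CPM and overlapped wild type. Without wild-type passage 29 the nuclear AGO1/2/3 knockout difference was 0.15 (adjusted p = 0.03). In cytoplasm the 15 libraries lay between 60.7 and 72.3 CPM, and no line passed the test in edgeR. On log2(TPM + 1) cytoplasmic SMAD4 was called lower in AGO1/2 (−0.48, adjusted p = 0.00026, limma) and AGO2 knockout cells (−0.27, adjusted p = 0.028), where the medians of all genes were −0.35 and −0.19. The nuclear AGO1 call was lost in 3 of 8 alternative analyses, with −0.13 when counts were scaled by transcript length (adjusted p = 0.33, edgeR). Under that scaling SMAD4 was called higher in AGO1/2 (0.29) and AGO1/2/3 knockout nuclei (0.35), and on log2(TPM + 1) lower in AGO2 knockout nuclei (−0.39).

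SMAD7, the inhibitory SMAD that the pathway induces (ENSG00000101665.10, chr18:48919853-48950965, minus strand), was lower in the single knockouts and higher in the other lines, in both fractions. Nuclear values were 6.93, 5.69 and 6.61 CPM in wild-type, 2.02, 1.78 and 2.38 in AGO1 knockout, 3.17, 2.86 and 3.63 in AGO2 knockout, 11.6, 13.2 and 12.9 in AGO1/2 knockout and 11.7, 8.86 and 10.3 CPM in AGO1/2/3 knockout libraries. The 5 genotypes formed an order from AGO1 through AGO2 knockout, wild type and AGO1/2/3 knockout to AGO1/2 knockout, and only the ranges of the last pair overlapped. The level was 3.11-fold lower in AGO1 (adjusted p = 3.5e-06), 1.99-fold lower in AGO2 (adjusted p = 6.6e-05), 1.96-fold higher in AGO1/2 (adjusted p = 7.2e-06) and 1.61-fold higher in AGO1/2/3 knockout cells (adjusted p = 3.0e-04, all edgeR).

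Cytoplasmic SMAD7 measured 4.38, 4.06 and 4.24 CPM in wild-type, 1.43, 1.53 and 1.60 in AGO1 knockout, 2.16, 2.06 and 1.82 in AGO2 knockout, 7.79, 8.68 and 8.19 in AGO1/2 knockout and 8.22, 7.10 and 7.51 CPM in AGO1/2/3 knockout libraries. On the CPM scale the order was the same as in nuclei and the replicates were tight. In TPM the wild-type libraries measured 1.87, 1.92 and 1.13, and the mean of AGO1/2/3 knockout cells (2.22 TPM) was above that of AGO1/2 knockout cells (2.09 TPM). The level was 2.78-fold lower in AGO1, 2.10-fold lower in AGO2, 1.94-fold higher in AGO1/2 and 1.80-fold higher in AGO1/2/3 knockout cells (adjusted p = 5.9e-07, 5.9e-06, 1.5e-06 and 7.8e-06, edgeR). A transcript with a retained intron, SMAD7-202, carried 25.9 ± 6.73% of SMAD7 TPM in wild-type nuclei and 36.0 ± 4.14% in AGO1/2 knockout nuclei (SD, n = 3).

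THBS1 (ENSG00000137801.11, chr15:39581079-39599466, plus strand) was the most variable member. Nuclear values were 29.7, 20.9 and 23.1 CPM in wild-type, 17.6, 14.8 and 15.4 in AGO1 knockout, 30.6, 21.4 and 21.1 in AGO2 knockout, 78.6, 127 and 38.0 in AGO1/2 knockout (passages 9, 10 and 11) and 31.8, 32.6 and 27.9 CPM in AGO1/2/3 knockout libraries. In CPM all 3 AGO1/2 knockout libraries were above wild type but far apart from each other, and the AGO1/2/3 knockout libraries overlapped wild type. In TPM the AGO1/2 knockout libraries (9.11, 15.5 and 4.22) overlapped wild type, which reached 6.08. The level was 3.29-fold higher in AGO1/2 knockout nuclei (log2 fold change 1.72 ± 0.30, adjusted p = 1.3e-04, edgeR). On log2(TPM + 1) the difference was 0.92 (adjusted p = 0.018, limma), where the median of all genes was −0.01. The AGO1 knockout libraries were all below wild type without passing the test (−0.63 ± 0.31, adjusted p = 0.14).

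Cytoplasmic THBS1 measured 16.6, 16.0 and 14.8 CPM in wild-type, 10.7, 8.85 and 7.87 in AGO1 knockout, 15.6, 10.1 and 12.3 in AGO2 knockout, 24.3, 41.3 and 12.5 in AGO1/2 knockout and 8.98, 8.90 and 9.81 CPM in AGO1/2/3 knockout libraries. The same passages of the AGO1/2 knockout line were high and low in both fractions. No line passed the test in edgeR: the difference was 0.72 ± 0.30 in AGO1/2 (adjusted p = 0.057) and −0.78 ± 0.30 in the AGO1/2/3 line (adjusted p = 0.054, edgeR). Without AGO1/2 knockout passage 11 the former was 1.05 (adjusted p = 0.0008). The AGO1/2/3 difference was called lower in 7 of 8 alternative analyses (adjusted p from 0.00071 to 0.055 over the 8), and that in AGO1 knockout cells (−0.79) in 5 of 8 (adjusted p from 0.019 to 0.10).

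Combined loss of AGO1 and AGO2 was next compared with loss of either one, as the difference from the mean of the AGO1 and AGO2 knockout lines, which leaves out the wild-type libraries and their higher passages. In nuclear RNA 6 members were higher and 0 lower (all genes: 31.2% higher, 31.4% lower), and in cytoplasmic RNA 7 were higher and 0 lower (28.4% and 26.1%). TGFB2 was 10.9-fold higher in nuclear and 14.1-fold higher in cytoplasmic RNA. SMAD7 was 4.88-fold and 4.69-fold higher, and TGFBR1 differed by 1.01 and 0.68 on the log2 scale. TGFBR2 and SMAD2 rose in cytoplasm (0.81 and 0.52) and were at −0.05 and 0.06 in nuclei, where neither passed the test. SMAD3 passed it in neither fraction.

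The AGO1/2/3 knockout line showed few differences from the AGO1/2 knockout line, in members (0 higher and 1 lower in each fraction) as among all genes (1.74% higher and 1.74% lower in nuclear RNA, 2.47% and 2.48% in cytoplasmic RNA). Loss of AGO3 cannot be told apart from clone and passage in this comparison of 1 line with 1 line. The member called was THBS1, lower by −1.40 in nuclear (adjusted p = 0.027) and −1.49 in cytoplasmic RNA (adjusted p = 0.022, edgeR). Without AGO1/2 knockout passage 10 the difference was −0.92 (adjusted p = 0.16) and −0.98 (adjusted p = 0.097). The call was also lost in nuclear RNA without AGO1/2 knockout passage 9 (0.11) or AGO1/2/3 knockout passages 11 (0.13), 12 (0.075) or 14 (0.069), and in cytoplasmic RNA without AGO1/2 knockout passage 9 (0.063) or AGO1/2/3 knockout passages 11 (0.12) or 12 (0.11, each an adjusted p). Without AGO1/2 knockout passage 11, cytoplasmic SMAD2 was called lower (−0.27, adjusted p = 0.035).

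Members differed in their distribution between nucleus and cytoplasm, relative to the other RNA of each fraction. In wild-type cells 4 members were higher in nuclear RNA and 3 in cytoplasmic RNA, against 39.6% and 37.3% of all genes. TGFBR2 (0.79), TGFB2 (0.60) and SMAD4 (0.31) were higher in nuclear RNA, and TGFB1 (−1.29) and TGFBR1 (−0.96) in cytoplasmic RNA, as log2 differences of nuclear from cytoplasmic CPM. SMAD7 passed the test in no genotype in edgeR, and in wild-type cells it was called higher in nuclear RNA in 3 of 9 alternative analyses. The wild-type call of TGFB2 was lost in 2 of 9. For SMAD2 (0.15, adjusted p = 0.021) and SMAD3 (−0.25, adjusted p = 0.034) the wild-type call was lost without single libraries: for SMAD2 without cytoplasmic passage 27 (0.081) or 28 (0.16) or nuclear passage 28 (0.052), and for SMAD3 without cytoplasmic passage 29 (0.38) or nuclear passage 27 (0.10) or 28 (0.26). With counts scaled by transcript length, 1 member was higher and 3 lower, and SMAD2 changed sign to −0.97. THBS1 was called higher in wild-type nuclei in 3 of 9 alternative analyses, with values from 0.08 to 1.22 over the 9. With the culture passage as a replicate block it was at 0.19 (adjusted p = 0.049, edgeR).

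In the knockout lines the same comparison gave 3 members higher and 2 lower in nuclear RNA in both AGO1 (all genes: 40.0% and 34.5%) and AGO2 knockout cells (39.8% and 33.6%), 3 and 4 in AGO1/2 knockout cells (36.9% and 31.6%), and 3 and 3 in AGO1/2/3 knockout cells (36.1% and 34.1%). On the CPM scale TGFB1 and TGFBR1 were higher in cytoplasmic RNA, and TGFB2 and SMAD4 in nuclear RNA, in all 5 genotypes. Mean TPM in AGO1/2 knockout cells was instead higher in nuclei for TGFB1 (16.9 against 14.3 TPM in cytoplasm) and TGFBR1 (14.5 against 12.8 TPM). TGFBR2, at 0.87 and 0.53 in the AGO1 and AGO2 knockout cells, was at −0.24 in AGO1/2 knockout (adjusted p = 0.0020) and 0.00 in AGO1/2/3 knockout cells. On log2(TPM + 1) the splits of the AGO1/2- and AGO1/2/3-deficient cells were 8 and 1, and 6 and 1, where the median of all genes was 0.74 and 0.41. SMAD2 was at −0.63 and −0.40 in these lines, and THBS1, which missed the threshold in the other genotypes, was higher in their nuclear RNA (1.14 and 1.22, adjusted p = 0.0024 and 0.0017, edgeR).

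Whether a knockout acted differently in the 2 fractions was tested as the difference of the effects themselves, in 1 fit of all 30 libraries. For the AGO1 knockout 0 members were called in edgeR (all genes: 0.662%), and DESeq2 called 1. For the AGO2 knockout 1 member was called (all genes: 5.76%), for AGO1/2 3 members (36.5%) and for AGO1/2/3 4 members (22.7%). In AGO1/2 knockout cells 1 of the 3 effects was higher and 2 lower in nuclear RNA, and on log2(TPM + 1) 5 were higher and 1 lower, where the median of all genes was 0.41. The nuclear effect on TGFBR2 was lower than the cytoplasmic one by −1.04 ± 0.09 in AGO1/2 (adjusted p = 1.3e-08) and −0.79 ± 0.09 in the AGO1/2/3 line (adjusted p = 1.9e-06). For SMAD2 the differences were −0.78 ± 0.08 (adjusted p = 9.1e-08) and −0.55 ± 0.08 (adjusted p = 3.2e-05), and on log2(TPM + 1) they were 0.03 (adjusted p = 0.80) and −0.12 (adjusted p = 0.29, limma), where the medians of all genes were 0.41 and 0.11. With counts scaled by transcript length the AGO1/2/3 difference was −0.19 (adjusted p = 0.095, edgeR).

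For TGFB1 the nuclear effect was the larger one, by 0.42 ± 0.11 in AGO2 (adjusted p = 0.026), 0.40 ± 0.11 in AGO1/2 (adjusted p = 0.0051) and 0.48 ± 0.11 in the AGO1/2/3 line (adjusted p = 0.0025, edgeR). TGFBR1 followed in AGO1/2/3 knockout cells (0.34 ± 0.10, adjusted p = 0.016), and was at 0.25 in AGO1/2 knockout cells (adjusted p = 0.054), where it was called in 5 of 9 alternative analyses, with 0.63 on log2(TPM + 1) (adjusted p = 3.5e-05, limma; median of all genes 0.41). The summed nuclear level of NEAT1 and MALAT1 and that of GAPDH, given above, differed from wild type in every knockout line. The part of these shifts in the differences between fractions was not tested.

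**Figure D4:**
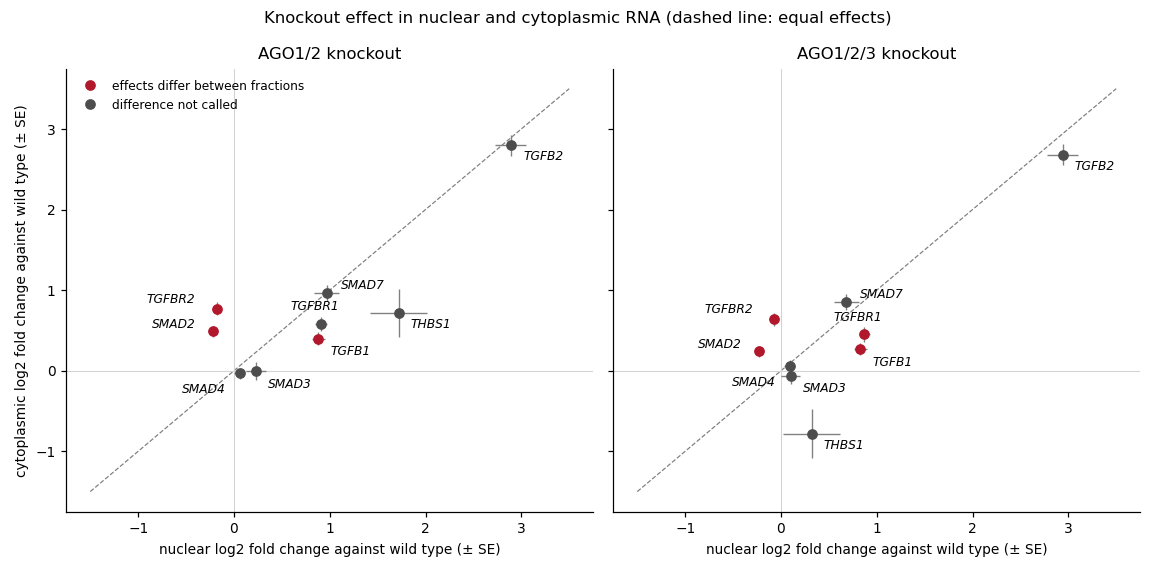
Effect of the AGO1/2 (left) and AGO1/2/3 knockout (right) on each gene, as log2 fold change against wild type in nuclear RNA (horizontal axis) and cytoplasmic RNA (vertical axis), with standard errors. Genes in red had effects that differed between the fractions at an adjusted p of 0.05. TGFBR2 and SMAD2 lie above the dashed line of equal effects and TGFB1 below it, while TGFB2 and SMAD7 lie close to it.

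The wider pathway was followed in a list of 69 further genes in 6 roles, of which the low-count filter kept 63 in nuclei and 65 in cytoplasm. In nuclear RNA 5 were higher and 19 lower in AGO1 knockout, 8 and 18 in AGO2 knockout, 33 and 11 in AGO1/2 knockout and 35 and 12 in AGO1/2/3 knockout cells, with median log2 fold changes of −0.14, −0.09, 0.43 and 0.40. In cytoplasmic RNA the counts were 1 and 16, 5 and 19, 22 and 21, and 18 and 16, with medians of −0.22, −0.22, 0.04 and 0.08. The shares of all genes are those given above. On log2(TPM + 1) the nuclear split of AGO1/2/3 knockout cells was 16 and 13, and the cytoplasmic splits were 8 and 25 in AGO1/2 knockout and 9 and 16 in AGO1/2/3 knockout cells.

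**Figure D5:**
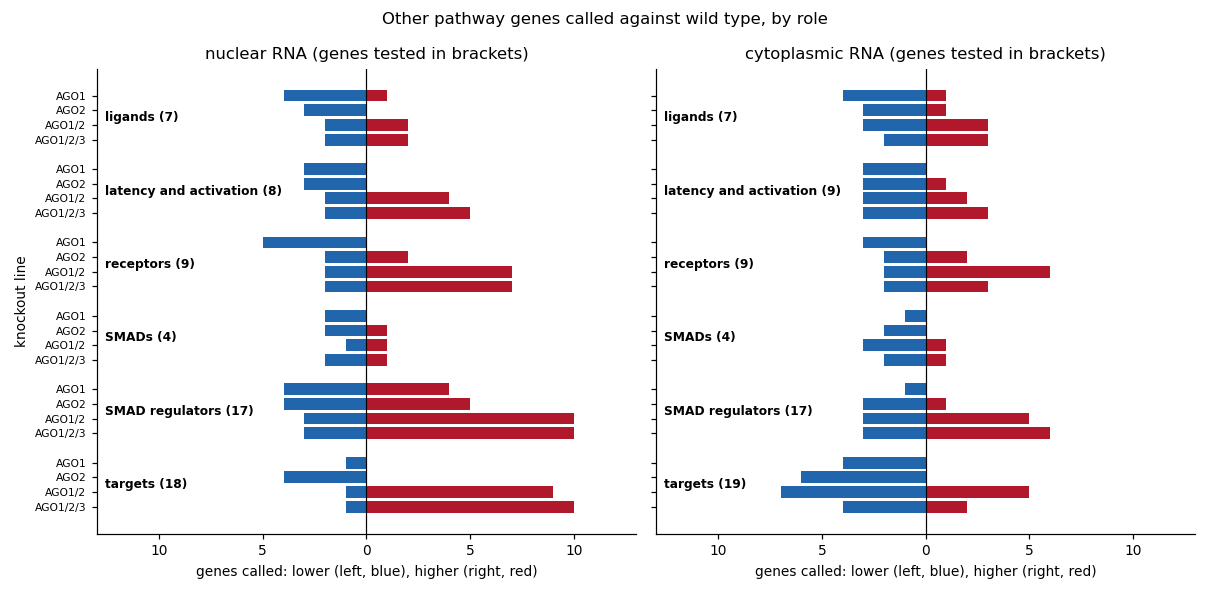
Number of the other pathway genes called higher (right of 0) or lower (left of 0) against wild type, by role, for the 4 knockout lines in nuclear and cytoplasmic RNA. Of 9 tested receptors, 7 were higher and 2 lower in nuclei of AGO1/2- as well as AGO1/2/3-deficient cells, and of 18 tested targets 9 and 10 were higher, against 32.9% of all genes higher and 34.7% lower in the former line and 29.1% and 29.5% in the latter.

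Among ligands, BMP2 (a bone morphogenetic protein) was detected in wild-type nuclei at 0.330 ± 0.0589 CPM (SD, n = 3), was higher in AGO1 knockout nuclei (1.79, adjusted p = 0.0048, edgeR) and had 0 reads in all AGO2-, AGO1/2- and AGO1/2/3-deficient libraries of both fractions. Against a floor of 3 counts over the group, nuclear BMP2 was at least 11.7-fold, 14.9-fold and 12.9-fold lower in these lines. INHBB, an activin and inhibin subunit, fell by 1.15 and 1.40 in nuclei of AGO1 and AGO2 knockout cells and rose by 3.15 and 2.30 in those of AGO1/2- and AGO1/2/3-deficient cells (log2 scale), in the same directions as SMAD7.

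LTBP1, which holds latent TGF-beta in the matrix, measured 21.9, 17.5 and 25.3 CPM in wild-type nuclei and 2.51, 2.66 and 2.54 CPM in AGO1/2 knockout nuclei, with 2.69, 2.01 and 2.78 CPM in AGO1/2/3 knockout nuclei. All knockout libraries of these lines were far below wild type (−3.07 and −3.11 on the log2 scale). ITGB8, an integrin subunit that takes part in activation of latent TGF-beta, moved the other way in cytoplasm (2.14 and 1.55). LRRC32, a cell-surface anchor of latent TGF-beta, was lower in nuclei (−1.63 and −1.30).

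Of the receptors, ACVRL1, a type I receptor, was higher in nuclei of AGO1/2- and AGO1/2/3-deficient cells (1.77 and 2.15), and ACVR2A, an activin type II receptor, was lower (−1.63 and −1.55). Of the other SMADs, SMAD6, the second inhibitory SMAD, rose with SMAD7 in these nuclei (1.03 and 1.18) and fell by 0.78 in AGO1 knockout nuclei, but unlike SMAD7 it was higher in AGO2 knockout nuclei (0.39). SMAD1, which serves the bone morphogenetic protein branch, was lower (−0.60 and −0.55). Among regulators USP11, a deubiquitinase, was higher (1.04 and 1.02) and TGIF2, a repressor that binds SMADs, was lower (−0.70 and −0.84) in nuclei. LEMD3, an inner nuclear membrane protein that binds SMADs, was lower in cytoplasmic RNA (−0.83 and −0.63).

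Among targets, TGM2 (transglutaminase 2) measured 10.0, 8.62 and 14.2 CPM in wild-type nuclei, 99.7, 134 and 88.6 CPM in AGO1/2 knockout nuclei and 55.3, 54.1 and 64.0 CPM in AGO1/2/3 knockout nuclei, without overlap (3.30 and 2.41 on the log2 scale). In cytoplasm it was higher by 2.24 and 1.70. TGFBI, a secreted matrix protein, was barely detected, with 2 reads over the wild-type nuclei, 49 over those of AGO1/2 knockout and 26 over those of AGO1/2/3 knockout cells. SNAI2, a repressor of epithelial genes, had 28 reads over wild-type cytoplasm and 7 over that of each of these lines. INHBA, NODAL, ENG and BMPR1B were too low to test in either fraction.

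The genes whose levels ran most like each member over the 10 group means were, by Pearson's r of log2 CPM among 16723 genes tested in both fractions, GNPTAB (0.997) and PAQR4 (0.995) for TGFB1, SLC5A4 (0.989) and SAMD4A (0.985) for TGFB2, ERLEC1 and CRIP2 (0.994 each) for TGFBR1, DNAJC27 (0.963) and SOS2 (0.959) for TGFBR2, EEF1AKMT2 (0.949) and BBIP1 (0.946) for SMAD2, GAS6 (0.971) and ENSG00000244675 (0.947) for SMAD3, DUOX1 (0.972) and DBH-AS1 (0.971) for SMAD4, TENM3 (0.987) and HKDC1 (0.975) for SMAD7, and RASAL2 (0.841) and AXIN2 (0.831) for THBS1. None of these nearest genes was another member. The 10 means share libraries and depth between genes, and the largest of so many correlations is high by selection, so they are given as a description.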

How the data were processed

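Stranded total RNA libraries were made after ribosomal RNA removal and sequenced on an Illumina NextSeq 500. The authors aligned reads to hg38 with STAR 2.5.3a and quantified transcripts with Salmon 0.11.0, per the submitters' processing notes. The deposited estimated counts are Salmon's read numbers per transcript and are not scaled across libraries. The deposited TPM values are those reads per effective transcript length, scaled to a fixed total per library. Reads shared between transcripts were divided by Salmon, which can move transcript shares.

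Transcripts were matched by identifier without version to GENCODE release 44 (196040 of 200401), since the annotation named in the study could not be identified as a GRCh38 release, and the 4361 unmatched carried 2.232% to 4.01% of reads per library. Counts were summed per gene and rounded. Genes were compared with edgeR 4.0.16 (quasi-likelihood test, TMM, filterByExpr with a minimum count of 10) in R 4.3.3, fitted to all 15 libraries of a fraction together (18919 nuclear and 17605 cytoplasmic genes) or all 30 for comparisons of fractions (20104 genes). Adjusted p-values are Benjamini-Hochberg values over all genes of a fit. An exact permutation test of 3 against 3 libraries cannot go below p = 0.1 and was therefore not used for calls. Libraries held 20431557 to 79731793 estimated reads, and genes with few reads are measured less precisely. Alternatives were DESeq2 1.42.0, RLE factors, counts scaled by transcript length, no filter, a minimum mean count of 50, limma 3.58.1 on log2(TPM + 1) and log2(TPM + 0.1) with a mean of at least 1 TPM, fits of only the groups compared, single libraries left out, and the culture passage as a block.

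Nuclear and cytoplasmic libraries of a line share passage numbers. Deviations from group means of same-numbered libraries correlated with r of 0.148 to 0.402 in wild-type cells, but from −0.0271 to 0.212 in the knockout lines. Wild-type libraries with different numbers had r of −0.263 to 0.169. The main fits paired no libraries, and the alternative with the culture passage as a block paired same-numbered libraries in every genotype. No pair of replicates was identical. Scripts were tested on simulated data. Further pathway genes were named as the 2 per role with the largest change among those called in AGO1/2/3 knockout cells. The members and lists were chosen with earlier results of these data known. The 8 eCLIP samples were not used here.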

Additional observations from a re-analysis of the deposited data

Results flagged for a closer look

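The effect of a knockout differed between nuclear and cytoplasmic RNA, by a test of the difference itself, for 4 of the 9 genes (edgeR, all 30 libraries in 1 fit): 1 member in AGO2, 3 in AGO1/2 and 4 in AGO1/2/3 knockout cells, against 5.76%, 36.5% and 22.7% of all genes. For TGFBR2 the nuclear effect minus the cytoplasmic effect was −1.04 in AGO1/2 and −0.79 in AGO1/2/3 knockout cells on the log2 scale (adjusted p = 1.3e-08 and 1.9e-06). In the former line the nuclear effect was −0.18, a call lost in 3 of 8 alternative analyses. For SMAD2 it was −0.78 and −0.55 (adjusted p = 9.1e-08 and 3.2e-05). The values on log2(TPM + 1) were 0.03 and −0.12 (adjusted p = 0.80 and 0.29, limma), and with counts scaled by transcript length the AGO1/2/3 value was −0.19 (adjusted p = 0.095). For TGFB1 it was 0.42 in AGO2, 0.40 in AGO1/2 and 0.48 in AGO1/2/3 knockout cells (adjusted p = 0.026, 0.0051 and 0.0025). The AGO2 value missed the threshold without cytoplasmic AGO2 knockout passage 9 (0.36, adjusted p = 0.082), cytoplasmic wild-type passage 29 (0.35, adjusted p = 0.053), nuclear AGO2 knockout passage 10 (0.39, adjusted p = 0.065) or nuclear wild-type passage 28 (0.36, adjusted p = 0.08). For TGFBR1 it was 0.34 in AGO1/2/3 knockout cells (adjusted p = 0.016), and 0.30 without nuclear AGO1/2/3 knockout passage 12 (adjusted p = 0.058) or nuclear wild-type passage 27 (adjusted p = 0.056). The groups of 3 libraries were too small for a test of single outlying samples.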

How the results depend on the processing

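Over 1188 refits of a member with a library left out, 1145 kept direction and call, 29 lost and 14 gained the call and 0 reversed. Over 1257 refits under other settings, 1086 kept both, 49 lost and 96 gained the call and 26 reversed. These totals hold the comparison of nuclear with cytoplasmic RNA for wild-type cells only and leave it out for the knockout lines. A change of sign between values that both missed the threshold was not counted as reversed. Cytoplasmic TGFB2, with a mean under 1 TPM, was left out of the cytoplasmic fits on both TPM scales. The cause of each change was not tested.

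Reversals came from the TPM scale and from scaling by transcript length. Under limma on log2(TPM + 1) and log2(TPM + 0.1), in that order, TGFBR2 was at −0.19 and −0.21 in AGO1 knockout nuclei and at 0.16 and 0.17 in AGO1/2 nuclei against the single knockouts, TGFBR1 at −0.20 and −0.23 in AGO2 nuclei, SMAD2 at 0.20 and 0.21 in AGO1/2 nuclei, SMAD4 at −0.27 and −0.28 in AGO2 cytoplasm and at −0.23 and −0.24 in AGO1/2 cytoplasm against the single knockouts, and TGFB1 at −0.04 and −0.04 in AGO1/2 cytoplasm. Between wild-type fractions SMAD2 was at −0.32 under both and SMAD3 at 0.53 and 0.55, and the difference of the AGO1/2 effects was 0.03 under both for SMAD2 and 0.53 and 0.63 for SMAD7. The medians of all genes moved on that scale, for example to −0.35 and −0.40 in AGO1/2 cytoplasm and 0.41 and 0.50 for the difference of the AGO1/2 effects, and relative to the former TGFB1 was at 0.31 and 0.36. With counts scaled by transcript length, SMAD2 was at 0.33 in AGO1/2 and 0.22 in AGO1/2/3 nuclei, and between wild-type fractions SMAD2 was at −0.97 and SMAD4 at −0.01.

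Counts of members called moved by over 1.5 times as follows. In nuclei, AGO1 knockout gave 5 and then 2 with length scaling and 8 on log2(TPM + 0.1), AGO2 knockout 4 and then 7 on both TPM scales, and AGO1/2/3 against AGO1/2 knockout 1 and then 0 with length scaling or only the groups compared and 2 on both TPM scales. In cytoplasm, AGO1 knockout gave 2 and then 4 on both TPM scales, AGO2 knockout 2 and then 6 on both TPM scales and 1 with DESeq2, no filter, length scaling or only the groups compared, and AGO1/2/3 against AGO1/2 knockout 1 and then 2 with DESeq2, the mean count filter, length scaling and both TPM scales and 0 with only the groups compared. Between fractions, wild type gave 7 and then 4 with length scaling, AGO1 knockout 5 and then 9 on log2(TPM + 0.1), and AGO2 knockout 5 and then 8 on log2(TPM + 0.1) or with the replicate block. For differences of effects, AGO1 gave 0 and then 1 with DESeq2, AGO2 1 and then 3 with DESeq2, the mean count filter or the replicate block, 2 with RLE or log2(TPM + 1) and 0 with no filter or only the groups compared, and AGO1/2 3 and then 5 with no filter and 6 on both TPM scales or with the replicate block.

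Among other splits of higher and lower members were 1 and 6 in AGO2 nuclei (TPM), 7 and 0 (length scaling), 6 and 1 (TPM), 6 and 0 (no filter) or 5 and 1 (only the groups compared) in AGO1/2 nuclei, 6 and 0 (length scaling), 4 and 0 (no filter) or 4 and 2 (mean count filter) in AGO1/2/3 nuclei, and 6 and 1 (DESeq2, no filter, mean count filter, length scaling) or 4 and 1 (only the groups compared) in AGO1/2/3 cytoplasm. Of the 65 other pathway genes tested, the differences of effects gave 0, 3, 25 and 16 calls (all genes: 0.662%, 5.76%, 36.5% and 22.7%), and 7, 25, 41 and 36 with the replicate block. In nuclei AGO1/2/3 against AGO1/2 knockout gave 3 (all genes: 1.74% higher and 1.74% lower), and 11 with DESeq2 and 14 on log2(TPM + 1). The shares of all genes under these alternatives are not given. With only the groups compared, calls fell to 14 in AGO1 nuclei, 15 in AGO2 nuclei and 10 in AGO1 cytoplasm.

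With a library left out, members called ranged in nuclei from 5 to 6 (AGO1), 4 to 5 (AGO2), 7 to 8 (AGO1/2), 5 to 7 (AGO1/2/3), 6 to 6 (AGO1/2 against single knockouts) and 0 to 1 (AGO1/2/3 against AGO1/2). In cytoplasm the ranges were 2 to 3, 1 to 2, 6 to 7, 4 to 6, 7 to 7 and 0 to 2. Between fractions they were 5 to 7 (wild type), 4 to 6, 5 to 6, 6 to 7 and 6 to 6, and for differences of effects 0 to 0, 0 to 2, 3 to 4 and 3 to 4. Calls that single libraries added, beside those given with the results, were nuclear TGFBR1 in AGO2 knockout without wild-type passage 29 (0.15), and, for differences of effects, TGFBR2 (−0.36) and SMAD2 (−0.30) in AGO2 knockout without cytoplasmic wild-type passage 29, TGFBR1 (0.29) in AGO1/2 knockout without cytoplasmic passage 11, and THBS1 in AGO1/2 knockout without cytoplasmic passage 10 (1.43) or nuclear passage 11 (1.27). Depth limited genes with few reads in wild-type cells, among them TGFB2, TGFBI, SNAI2, BMP2, LRRC32, INHBB and ACVRL1, and with length scaling ACVRL1 lost its AGO1/2/3 call in both fractions (1.16 and 1.09).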
